A study of Homo sapiens with 9 samples.

Results

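Genes of the TRAIL, FAS and inflammatory caspase pathways were followed in OVCAR4 cells after knockdown of MPZL3. They were taken by symbol from the deposited count table and make up 10 of its 58735 genes: the ligand TNFSF10 (TRAIL), the receptors TNFRSF10A, TNFRSF10B, TNFRSF10D and FAS, the apical caspase CASP8 and its inhibitor CFLAR, the inflammatory caspases CASP1 and CASP4, and XAF1. Each symbol matched 1 row of the table. OVCAR4 is an established line of ovarian serous adenocarcinoma. Cells received lentivirus carrying a scrambled hairpin (scr control, 3 libraries) or 1 of 2 short hairpins against MPZL3, named shMPZL3 #1 (3 libraries) and shMPZL3 #2 (3 libraries), where MPZL3 encodes an immunoglobulin-domain membrane protein. All 3 groups, controls included, grew in the same medium with serum and insulin, were transduced and were selected with puromycin for 3 days. Every result therefore comes from 1 cell line, and in bulk RNA fewer cells expressing a gene and less RNA per cell cannot be told apart.

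TRAIL and FAS ligand bind trimeric receptors whose cytoplasmic death domains recruit the adaptor FADD and CASP8, and CFLAR, a catalytically inactive relative of CASP8, competes for the same complex. TNFRSF10D is a decoy receptor for TRAIL with a truncated death domain. CASP1 and CASP4 act in another route: CASP1 is activated in inflammasomes and matures interleukin precursors, whereas CASP4 senses cytosolic lipopolysaccharide, and both cleave gasdermin D. TNFSF10, FAS, the inflammatory caspases and XAF1, which binds the caspase inhibitor XIAP, are known interferon-responsive genes in many cell types.

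The knockdown was seen in every library of its label. MPZL3 was at 578 ± 38.5 normalized counts in the controls and fell to 128 ± 12.9 under shMPZL3 #1 and to 312 ± 59.5 under shMPZL3 #2 (mean ± SD over 3 libraries), so the remaining MPZL3 transcript was higher with shMPZL3 #2 (log2 difference between the shRNAs 1.28, adjusted p = 5.72e-05 by edgeR's quasi-likelihood test). A normalized count here is the read count scaled by library size and TMM factor to the mean library. Total counts were 15040102 to 27835841 per library. Of 9 listed markers of epithelial ovarian carcinoma, 8 passed the filter, and their summed level was 3815 to 4698 CPM (read counts as parts per 1e6 of the library). The ovarian marker WT1 had at most 13 counts in a library.

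The listed markers of other cell types were not level between the groups. The 10 listed markers of leukocytes, in which several of the followed genes are abundant, summed to 2.33 to 3.21 CPM in the controls, 3.83 to 5.27 CPM under shMPZL3 #1 and 3.84 to 6.71 CPM under shMPZL3 #2, so all 6 knockdown libraries lay above the controls. CD14 was at 7.39 ± 3.69, 24.1 ± 7.19 and 22.6 ± 3.12 normalized counts in scr control, shMPZL3 #1 and shMPZL3 #2 (mean ± SD over 3 libraries), and ITGAM at 7.86 ± 5.48, 36.6 ± 8.70 and 30.8 ± 10.2. The pan-leukocyte marker PTPRC was at 10.2 ± 3.20, 9.09 ± 8.49 and 15.4 ± 10.0, MS4A1 and FCGR3A were at 0 in every library, and CD3E, CD68, LYZ and NKG7 had at most 4 counts in a library. The 3 endothelial markers summed to 8.08 to 9.86 CPM in the controls and 7.29 to 8.78 CPM under shMPZL3 #1. Under shMPZL3 #2 they summed to 12.4 to 16.0 CPM. CDH5 was at 83.2 ± 15.2, 65.9 ± 12.7 and 173 ± 22.5 normalized counts in scr control, shMPZL3 #1 and shMPZL3 #2. VWF was at 100 ± 11.3, 92.9 ± 9.51 and 105 ± 27.7 in the same order, and PECAM1 had at most 18 counts in a library. The 6 fibroblast and mesothelial markers summed to 139 to 148, 118 to 151 and 144 to 208 CPM in the same order of groups, and DCN was at 0 in every library. Of these 6, COL1A1 was at 265 ± 29.5, 688 ± 162 and 409 ± 77.8 normalized counts and LUM at 89.4 ± 19.2, 153 ± 42.9 and 243 ± 69.3, and UPK3B, the most abundant, at 2597 ± 63.8, 1889 ± 433 and 2861 ± 699. The part of these markers' cell types in the results was not tested.

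The deposited positions place the genes on GRCh38, with gene models of GENCODE 29, in 3 clusters and 3 single loci. CFLAR (2:201116104-201176687), CASP10 and CASP8 (2:201233443-201287711) lie on the plus strand of chromosome 2 within 171608 bases. CASP4 (11:104942866-104969436), CASP5 and CASP1 (11:105025443-105035250) are neighbours on the minus strand of chromosome 11, followed by the CARD-only gene CARD16. The 4 TRAIL receptor genes also lie side by side. TNFSF10 (3:172505508-172523507, minus strand), FAS (10:88990582-89015785, plus strand) and XAF1 (17:6755447-6775647, plus strand) lie outside these clusters. FAS and XAF1 each share exon bases with a gene on the opposite strand, named below.

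Start-site windows of 300 bases (250 before to 50 from the start on) were taken from RefSeq (GRCh38.p14) for 6 of the 10 genes, namely TNFSF10, FAS, CASP4, CASP8, CFLAR and XAF1. They were searched on both strands for the core of the interferon-stimulated response element (ISRE, GAAANNGAA, in 8.11% of 35116 windows), the STAT dimer site GAS (TTCNNNGAA, in 7.66%) and the NF-kB consensus (5.91%). The stretches of 30 bases below show an ISRE or NF-kB match in 5 of these genes, because interferon-stimulated and NF-kB target genes are set beside them below. They run 5′ to 3′ on the gene's strand, with the match in capitals, and 5 of the 6 lie wholly or partly in annotated exons of the gene, the first of TNFSF10 being upstream of them. The ISRE matches are on the opposite strand, so they read as its reverse complement.
TNFSF10, 3:172523597-172523626, minus strand: aggagcttctTTCAGTTTCcctcctttcca
TNFSF10, 3:172523465-172523494, minus strand: aaacaactcaTTCGCTTTCatttcctcact
CASP8, 2:201233440-201233469, plus strand: catgtgctctgagtttttggtTTCTGTTTC
FAS, 10:88991264-88991293, plus strand: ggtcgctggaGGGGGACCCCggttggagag
CFLAR, 2:201118609-201118638, plus strand: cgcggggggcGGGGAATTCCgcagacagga
XAF1, 17:6755933-6755962, plus strand: caggaatcaaGGGGAACTCCtgagccgaga
The ISRE core thus occurred at 2 places before the TNFSF10 start site, beginning 186 and 54 bases upstream, and across the first start site of CASP8. The NF-kB consensus occurred in 1 of 3 FAS windows, 1 of 4 CFLAR windows and 1 of 2 XAF1 windows. Another CFLAR window held an ISRE core 111 bases upstream, and the CASP4 window held none of the 3 motifs. The only GAS match in these windows began 200 bases upstream of the first start site of CASP8. A match is a run of letters and not evidence of binding.

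Of the 10 genes, 9 passed the filter on low counts and were tested among 16928 genes in all. Grouping both shRNAs as the study did, 6 of the 9 were higher than in scr control at an adjusted p under 0.05 (edgeR's quasi-likelihood test) and 0 were lower, where 9.36% of all genes tested were called higher and 6.4% lower. Their median log2 fold change was 0.65, beside 0.02 over all genes. For shMPZL3 #1 alone, 6 of 9 were higher (background 16.8%) and 0 lower (background 15.3%), with a median of 0.73 beside 0.01 over all genes, and for shMPZL3 #2 alone, 4 of 9 were higher (background 9.36%) and 0 lower (background 5.8%), with a median of 0.45 beside 0.00. Both shRNA comparisons use the same 3 control libraries. The genes called for both shRNAs were CFLAR and XAF1. TNFSF10, FAS, CASP1 and CASP4 passed the test for shMPZL3 #1, and TNFRSF10A and TNFRSF10B for shMPZL3 #2.

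**Figure D1:**
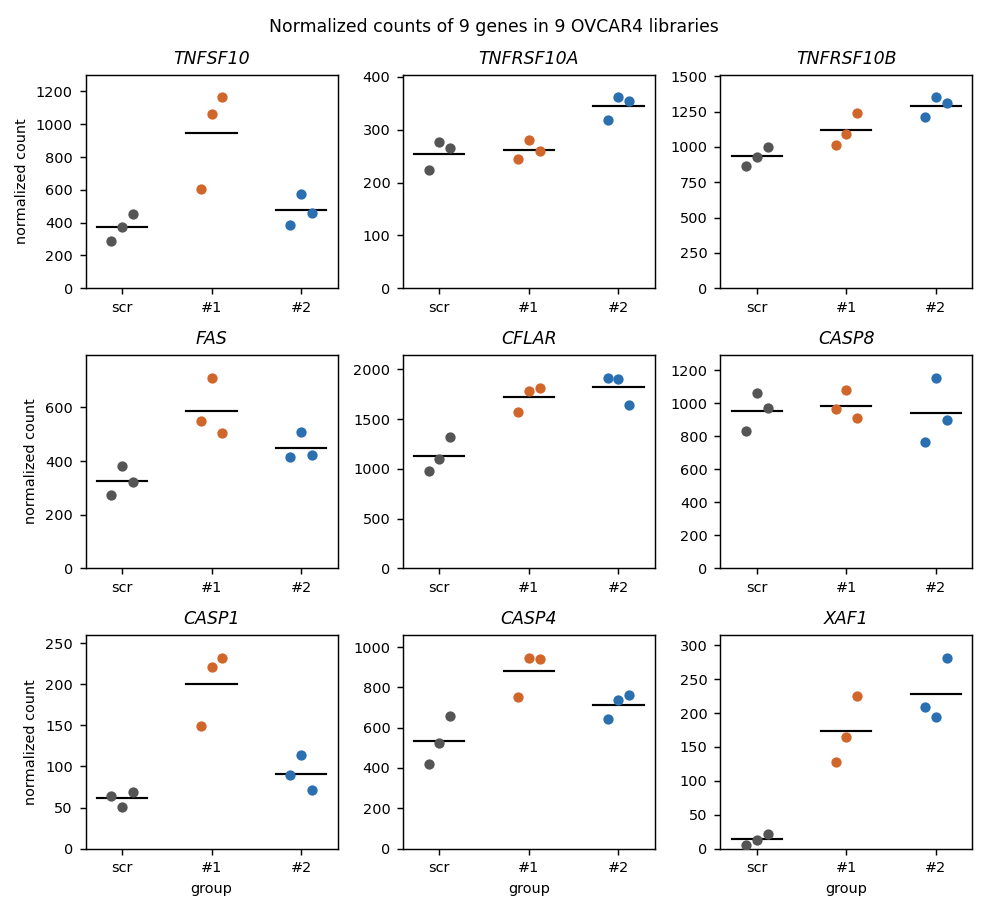
Normalized counts (vertical axes, from 0) of the 9 tested genes in each of the 9 libraries, with 1 point per library and a bar at the mean of each group of 3. XAF1 rose from at most 22 in scr control to at least 128 with either shRNA, TNFSF10 and CASP1 were highest with shMPZL3 #1, and CASP8 overlapped between all groups.

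TNFSF10, the ligand, was at 290, 375 and 455 normalized counts in the scr control libraries. It was at 607, 1060 and 1163 with shMPZL3 #1 and at 386, 576 and 461 with shMPZL3 #2. All 3 shMPZL3 #1 libraries lay above all controls, whereas 1 of the shMPZL3 #2 libraries lay below the highest control and another exceeded it by only a few counts. The log2 fold change was 1.34 for shMPZL3 #1 (SE 0.21, adjusted p = 0.000208, edgeR) and 0.35 for shMPZL3 #2 (SE 0.22, adjusted p = 0.308, edgeR). With both shRNAs grouped it was 0.92 (SE 0.32, adjusted p = 0.0653, edgeR), and the exact two-sided permutation test over the 9 libraries gave p = 0.0714, where the smallest possible is 0.0119. The shRNAs differed from each other by −0.99 (shMPZL3 #2 minus #1, SE 0.21, adjusted p = 0.00433, edgeR). The grouped value depended on the model: it passed in a fit that keeps the 3 groups apart and takes the mean of the shRNAs (log2 fold change 0.84, adjusted p = 0.00384, edgeR). It also passed with 1 library of shMPZL3 #2 left out, at an adjusted p of 0.0303 without replicate 1 and 0.0418 without replicate 3 (edgeR).

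Other ligands of the TNF superfamily were mostly low. Of 16 listed, 8 could be tested. In the grouped comparison 2 were higher (background 9.36%), with shMPZL3 #1 3 (background 16.8%) and with shMPZL3 #2 2 (background 9.36%). TNF, the founding cytokine of the family, rose with both shRNAs, by 0.96 on the log2 scale for shMPZL3 #1 and 1.62 for shMPZL3 #2. TNFSF14 (LIGHT) rose by 2.97 with shMPZL3 #1 (adjusted p = 0.000441, edgeR), with 1.48 for shMPZL3 #2 (adjusted p = 0.0812, edgeR). FASLG, the ligand of FAS, was at 0 counts in all scr control libraries and at 14 counts over the 6 knockdown libraries, 12 of them in 1 library of shMPZL3 #1, and did not pass the filter.

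The TRAIL receptor genes TNFRSF10B, TNFRSF10C, TNFRSF10D and TNFRSF10A lie in this order within 204994 bases of chromosome 8. TNFRSF10B, the more abundant death receptor, was at 867, 932 and 998 normalized counts in the controls, at 1017, 1092 and 1242 under shMPZL3 #1 and at 1215, 1350 and 1313 under shMPZL3 #2. All 6 knockdown libraries exceeded all 3 controls, by a narrow margin for the lowest. The grouped log2 fold change was 0.37 (SE 0.11, adjusted p = 0.0365, edgeR; exact permutation p = 0.0119). By shRNA it was 0.26 for shMPZL3 #1 (adjusted p = 0.0689, edgeR) and 0.47 for shMPZL3 #2 (adjusted p = 0.00582, edgeR), and the difference between the shRNAs was 0.21 (95% interval −0.01 to 0.43). TNFRSF10B shares 67 exon bases with its opposite-strand neighbour RHOBTB2. RHOBTB2 summed to 2400 counts and TNFRSF10B to 10167, and RHOBTB2 had a grouped log2 fold change of 0.03 (adjusted p = 0.921, edgeR).

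TNFRSF10A, the other death receptor of TRAIL, was at 223, 276 and 265 normalized counts in the controls, at 244, 281 and 259 under shMPZL3 #1 and at 318, 361 and 355 under shMPZL3 #2. The shMPZL3 #2 libraries lay above all others, and the shMPZL3 #1 libraries overlapped the controls. The log2 fold change was 0.43 for shMPZL3 #2 (SE 0.14, adjusted p = 0.0468, edgeR) and 0.03 for shMPZL3 #1 (95% interval −0.27 to 0.33), with a difference between the shRNAs of 0.40 that missed the threshold (adjusted p = 0.0621, edgeR). The call for shMPZL3 #2 was lost when any one of the scr control or shMPZL3 #2 libraries was left out, with adjusted p between 0.0714 (without shMPZL3 #2 replicate 1) and 0.210 (without scr control replicate 1). The decoy TNFRSF10D had 3 counts over the 9 libraries, 1 in scr control and 2 in shMPZL3 #1, and no fold is given. TNFRSF10C, the second decoy, had 7 counts in all. TNFRSF10A shares 266 and 224 exon bases with the opposite-strand transcripts AC100861.1 and TNFRSF10A-AS1, which had 317 and 206 counts over the 9 libraries beside 2620 for TNFRSF10A. For shMPZL3 #2, where TNFRSF10A was called, TNFRSF10A-AS1 had a log2 fold change of 1.08 (adjusted p = 0.0758, edgeR) and AC100861.1 of 0.59 (adjusted p = 0.368, edgeR), and for shMPZL3 #1 the values were 0.12 and −0.32 (adjusted p = 0.852 and 0.622, edgeR). Without strand information their reads cannot be told apart from those of TNFRSF10A where the exons overlap, and their part in its call was not tested.

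FAS, the receptor of FAS ligand, was at 275, 383 and 320 normalized counts in the controls, at 548, 711 and 506 under shMPZL3 #1 and at 415, 508 and 423 under shMPZL3 #2. All 6 knockdown libraries lay above all 3 controls. The log2 fold change was 0.66 with both shRNAs grouped (SE 0.18, adjusted p = 0.0234, edgeR; exact permutation p = 0.0119), 0.85 for shMPZL3 #1 (SE 0.16, adjusted p = 0.000676, edgeR) and 0.45 for shMPZL3 #2 (SE 0.16, adjusted p = 0.0618, edgeR). The value for shMPZL3 #2 passed with DESeq2 (adjusted p = 0.0467). The shRNAs differed by −0.39 (95% interval −0.72 to −0.07, adjusted p = 0.0958, edgeR). FAS shares 380 exon bases, 8.93% of its exons, with ACTA2 (smooth muscle actin) on the opposite strand, and the libraries carry no strand information. ACTA2 was at 286 ± 135 normalized counts in the controls, 2655 ± 505 under shMPZL3 #1 and 464 ± 67.5 under shMPZL3 #2 (mean ± SD over 3 libraries), with log2 fold changes of 3.21 (adjusted p = 4.98e-07, edgeR) and 0.70 (adjusted p = 0.0622, edgeR). Its part in the FAS values was not tested.

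Of 13 other receptors of the family tested among 16 listed, 2 were higher in the grouped comparison (background 9.36%), with a grouped median of 0.30. With shMPZL3 #1, 2 were higher (background 16.8%) and 1 lower (background 15.3%), and with shMPZL3 #2, 4 were higher (background 9.36%). CD40, a costimulatory receptor, was called for both shRNAs (log2 fold change 0.57 for shMPZL3 #1 and 1.38 for shMPZL3 #2). TNFRSF1A, the main receptor of TNF, was at 0.04 in the grouped comparison (adjusted p = 0.816, edgeR).

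CFLAR, which encodes the FLIP proteins that restrain CASP8, was at 975, 1101 and 1320 normalized counts in the controls, at 1576, 1779 and 1810 under shMPZL3 #1 and at 1916, 1906 and 1637 under shMPZL3 #2. The 6 knockdown libraries lay above all controls, and the shRNA groups overlapped each other. Its log2 fold change was 0.65 grouped (SE 0.11, adjusted p = 0.00301, edgeR; exact permutation p = 0.0119), 0.61 for shMPZL3 #1 (adjusted p = 0.000889, edgeR) and 0.69 for shMPZL3 #2 (adjusted p = 0.000695, edgeR). The shRNAs differed by 0.08 (95% interval −0.16 to 0.32). The antisense gene CFLAR-AS1 had 193 counts over the 9 libraries beside 14236 for CFLAR. CFLAR was 1 of 2 genes of the group, with XAF1, whose grouped call held without each library in turn.

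CASP8, the apical caspase of the death receptor complex, was at 830, 1060 and 969 normalized counts in the controls, at 965, 1078 and 912 under shMPZL3 #1 and at 766, 1154 and 898 under shMPZL3 #2. The 3 groups overlapped. The grouped log2 fold change was 0.01 (95% interval −0.27 to 0.29, adjusted p = 0.961, edgeR), so a rise as large as that of CFLAR lies outside the interval. CASP10, the paralogue of CASP8 that lies between CFLAR and CASP8, was at 282 ± 24.0 normalized counts in the controls, 440.5 ± 25.1 under shMPZL3 #1 and 415 ± 56.7 under shMPZL3 #2 (mean ± SD over 3 libraries). It rose by 0.64 on the log2 scale for shMPZL3 #1 (adjusted p = 0.00205, edgeR) and 0.56 for shMPZL3 #2 (adjusted p = 0.0114, edgeR). Thus of the 3 neighbours on chromosome 2, CFLAR and CASP10 were higher with both shRNAs and CASP8 was not called with either. Of the 6 tested caspases outside the 10 genes, CASP10 was the 1 called in the grouped comparison (background 9.36% higher).

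All 16 listed adaptors, ubiquitin ligases and necroptosis kinases of the death receptor complexes were tested. Of them, 6 were higher grouped (background 9.36%), 9 with shMPZL3 #1 (background 16.8%) and 5 with shMPZL3 #2 (background 9.36%). In each of these comparisons 0 were lower, beside 6.4%, 15.3% and 5.8% of all genes. BIRC3, an inhibitor of apoptosis and ubiquitin ligase, rose by 2.06 and 2.12 on the log2 scale with shMPZL3 #1 and #2. TRAF1, an adaptor of TNF receptors, rose by 1.81 and 1.56, and TRADD, the adaptor of TNFRSF1A, by 0.91 and 0.70. FADD, the adaptor shared by FAS and the TRAIL receptors, was at −0.08 grouped (adjusted p = 0.738, edgeR). In the mitochondrial arm of caspase activation, 7 genes were tested, with 1 higher and 1 lower grouped (background 9.36% and 6.4%) and a median of −0.13. With shMPZL3 #1, 1 was higher and 3 lower (background 16.8% and 15.3%), with a median of −0.27. With shMPZL3 #2, 1 was higher and 1 lower (background 9.36% and 5.8%), with a median of 0.00. DIABLO, which antagonizes inhibitors of apoptosis, rose with both shRNAs (1.18 grouped), and CYCS (cytochrome c) fell by 0.49 in the grouped comparison.

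CASP1 was the inflammatory caspase with the larger change and the lower level. It was at 63.8, 50.9 and 68.7 normalized counts in the controls, at 149, 222 and 233 under shMPZL3 #1 and at 89.1, 114 and 71.4 under shMPZL3 #2. All 6 knockdown libraries exceeded the controls, 1 of shMPZL3 #2 by under 3 normalized counts, and the 3 shMPZL3 #1 libraries lay above all others. CASP1 had a log2 fold change of 1.73 for shMPZL3 #1 (SE 0.24, adjusted p = 5.9e-05, edgeR), 0.58 for shMPZL3 #2 (SE 0.24, adjusted p = 0.117, edgeR) and 1.26 grouped (SE 0.37, adjusted p = 0.0349, edgeR; exact permutation p = 0.0357). The difference between the shRNAs was −1.14 (SE 0.22, adjusted p = 0.00246, edgeR). CARD16, whose sequence is nearly identical to the CARD domain of CASP1, was at 72.0 ± 8.91 normalized counts in the controls, 162 ± 13.0 under shMPZL3 #1 and 82.2 ± 13.1 under shMPZL3 #2 (mean ± SD over 3 libraries). It rose with shMPZL3 #1 (log2 fold change 1.16, adjusted p = 0.000393, edgeR), with a log2 difference between the shRNAs of −0.98 (adjusted p = 0.00287, edgeR), and reads cannot always be assigned to 1 of the 2 genes. CASP5, between CASP4 and CASP1, had 5 counts over all libraries.

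CASP4 was at 418, 523 and 656 normalized counts in the controls, at 751, 948 and 940 under shMPZL3 #1 and at 645, 735 and 764 under shMPZL3 #2. In CASP4, 1 library of shMPZL3 #2 lay below the highest control, and the other 5 knockdown libraries lay above all controls. The log2 fold change was 0.73 for shMPZL3 #1 (SE 0.15, adjusted p = 0.00137, edgeR), 0.43 for shMPZL3 #2 (SE 0.15, adjusted p = 0.0615, edgeR) and 0.58 grouped (SE 0.16, adjusted p = 0.0259, edgeR; exact permutation p = 0.0238). The value for shMPZL3 #2 passed with DESeq2 (adjusted p = 0.0442). The shRNAs differed by −0.30 (95% interval −0.60 to 0.01).

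Of 23 listed inflammasome sensors, adaptors, CARD-only genes and gasdermins, 16 were tested. Grouped, 5 were higher (background 9.36%) and 1 lower (background 6.4%). With shMPZL3 #1, 9 were higher (16.8%) and 1 lower (15.3%), and with shMPZL3 #2, 3 were higher (9.36%) and 1 lower (5.8%). The DNA sensor IFI16 rose by 2.00 and 1.91 on the log2 scale with shMPZL3 #1 and #2. The CASP1 substrates went in opposite directions, with IL1B higher (1.93 and 1.64) from at most 21.3 normalized counts in scr control, and IL18 lower (−0.92 and −0.58). PYCARD (ASC), the adaptor that recruits CASP1, rose with shMPZL3 #1 (0.78, adjusted p = 0.00428, edgeR), with 0.46 for shMPZL3 #2 (adjusted p = 0.111, edgeR). GSDMD, the gasdermin cleaved by both inflammatory caspases, rose by 0.39 with shMPZL3 #1 (adjusted p = 0.0297, edgeR), with 0.26 for shMPZL3 #2 (adjusted p = 0.196, edgeR). The DNA sensor AIM2 was at 0 counts in scr control and had 5 counts over all 9 libraries.

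XAF1 changed most of the 10 genes. It had 4, 14 and 16 raw counts in the scr control libraries, equal to 5.32, 13.2 and 22 normalized counts. It was at 128, 165 and 226 normalized counts with shMPZL3 #1 and at 210, 195 and 282 with shMPZL3 #2. The lowest knockdown library lay far above the highest control. The fold change was 12.8 for shMPZL3 #1 (log2 3.68, SE 0.34, adjusted p = 2.8e-06, edgeR) and 17.0 for shMPZL3 #2 (log2 4.08, SE 0.33, adjusted p = 1.06e-06, edgeR), and the difference between the shRNAs was 0.41 (95% interval −0.11 to 0.92). The exact permutation test over the grouped libraries gave p = 0.0119. A noncoding gene on the opposite strand, PRAL, overlaps 38.3% of the XAF1 exons and had 63 counts over the 9 libraries, 0 of them in scr control, beside 1353 for XAF1. PRAL was itself called higher with shMPZL3 #1 (adjusted p = 0.0299, edgeR) and shMPZL3 #2 (adjusted p = 0.0350, edgeR), at few counts. As the libraries carry no strand information, reads in the overlap cannot be told apart, and its part in the XAF1 values was not tested.

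**Figure D2:**
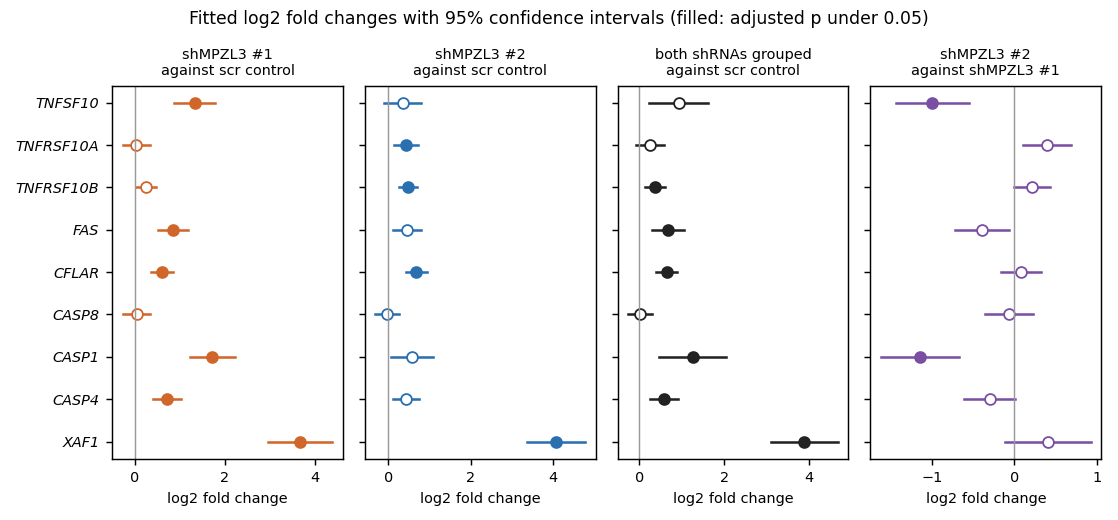
Log2 fold changes (horizontal axes) with 95% confidence intervals for the 9 tested genes in the 4 comparisons, with filled points at an adjusted p under 0.05 (edgeR). XAF1 lay at 3.68 and 4.08 for the shRNAs, CASP8 near 0 in every panel, and TNFSF10 (−0.99) and CASP1 (−1.14) were the filled points between the shRNAs.

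In a direct comparison of shMPZL3 #2 with shMPZL3 #1, 2 of 9 genes were lower, TNFSF10 and CASP1, and 0 were higher, beside 7.56% of all genes called lower and 7.56% called higher. Both calls held without each library in turn. Without 1 library the difference ranged from −1.24 to −0.81 for TNFSF10 and from −1.33 to −1.0 for CASP1. All 24 interferon-stimulated genes listed outside the 10 genes were tested, and 22 were higher with each shRNA (background 16.8% for #1, 9.36% for #2). Their median log2 fold change was 1.98 for shMPZL3 #1 and 2.51 for shMPZL3 #2. Between the shRNAs 8 were higher and 1 lower with shMPZL3 #2. OAS2 and OAS1, which synthesize oligoadenylates upon sensing double-stranded RNA, rose by 4.73 and 4.18 on the log2 scale with shMPZL3 #1 and by 6.06 and 5.58 with shMPZL3 #2. GBP2, an interferon-induced GTPase, was the gene lower with shMPZL3 #2 than with #1 (−0.94, adjusted p = 0.000588, edgeR). The summed CPM of the 24 genes was 544 to 758 in scr control, 1387 to 2600 with shMPZL3 #1 and 2112 to 2469 with shMPZL3 #2.

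NF-kB target genes were higher for 9 of 14 tested with shMPZL3 #1 (background 16.8%) and 13 of 14 with shMPZL3 #2 (background 9.36%). Compared directly, 8 of 14 were higher with shMPZL3 #2 than with #1 (background 7.56%). CXCL1 and IL6, secreted inflammatory mediators, rose by 0.79 and 1.09 on the log2 scale with shMPZL3 #1 and by 2.91 and 2.20 with shMPZL3 #2.

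**Figure D3:**
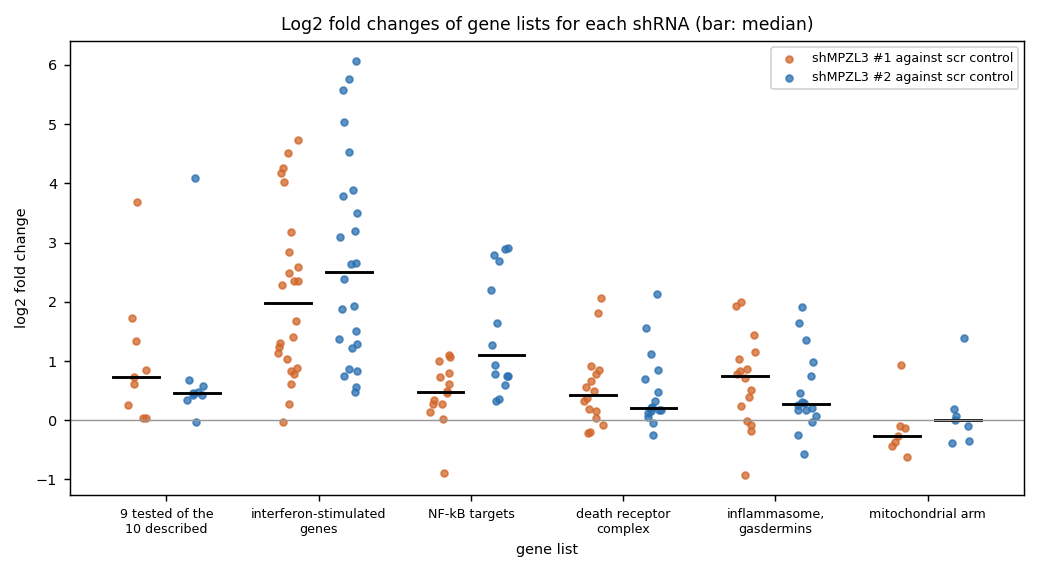
Log2 fold changes (vertical axis) of the genes in 6 lists for shMPZL3 #1 and shMPZL3 #2, each against scr control, with 1 point per tested gene and a bar at the median. The medians of the interferon-stimulated genes were 1.98 and 2.51, and those of the 9 tested genes described here were 0.73 and 0.45.

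All 6 knockdown libraries lay above all 3 controls for TNFRSF10B, FAS, CFLAR, CASP1 and XAF1, 5 of 9, beside 11.8% of all genes. With shMPZL3 #1 alone this held for 7 of 9 (background 23.9%), the exceptions being TNFRSF10A and CASP8. With shMPZL3 #2 alone it held for 6 of 9 (background 18.7%), the exceptions being TNFSF10, CASP4 and CASP8. Grouped calls were lost when 1 control library was left out, for these genes and over all genes. Over all genes 1584 of 16928 were called higher grouped with every library. With scr control replicate 1, 2 or 3 left out, 453 of 17589, 686 of 17514 and 815 of 17621 were. Without scr control replicate 1, whose values were the lowest control for 8 of the 9 genes, CFLAR and XAF1 remained called and TNFRSF10B (adjusted p = 0.193), FAS (0.141), CASP1 (0.126) and CASP4 (0.164, edgeR) did not. Without scr control replicate 2, TNFRSF10B (adjusted p = 0.128), CASP1 (0.139) and CASP4 (0.0998, edgeR) were lost, and without replicate 3, TNFRSF10B (0.0790), FAS (0.0840) and CASP1 (0.0852, edgeR). CASP1 also missed the threshold without any 1 of the shMPZL3 #1 libraries (adjusted p = 0.0521 to 0.0546, edgeR), and TNFRSF10B without shMPZL3 #1 replicate 3 (0.0537) or any 1 of the shMPZL3 #2 libraries (0.0503 to 0.0528, edgeR). The calls for shMPZL3 #1 and those between the shRNAs were kept without each library in turn.

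Levels of different genes were compared per kilobase of merged exons (CPM per kb). In scr control TNFRSF10B was highest at 8.79 ± 0.62, followed by CASP8 (6.40 ± 0.78), TNFSF10 (5.23 ± 1.16), TNFRSF10A (4.20 ± 0.46), FAS (3.73 ± 0.62), CASP4 (3.57 ± 0.80), CFLAR (2.44 ± 0.38), CASP1 (0.80 ± 0.12) and XAF1 (0.10 ± 0.06; SD, n = 3 each). Neighbours in this order from CASP8 to CFLAR overlapped in range, whereas TNFRSF10B lay above them and CASP1 and XAF1 below. With shMPZL3 #1, TNFSF10 was the highest at 13.2 ± 4.14, overlapping TNFRSF10B at 10.5 ± 1.08, whereas with shMPZL3 #2 TNFRSF10B led at 12.2 ± 0.66 and TNFSF10 was at 6.64 ± 1.34. The merged length counts every annotated exon once, used or not, and was 22529 bases for CFLAR.

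**Figure D4:**
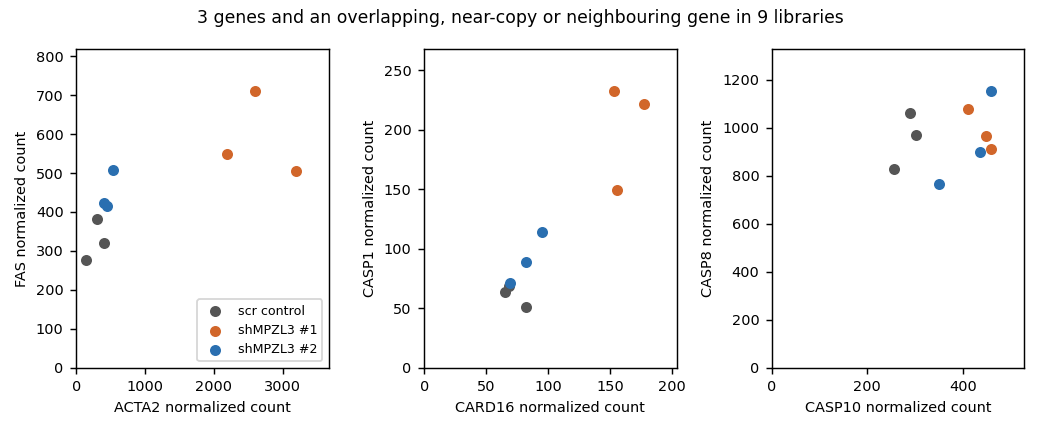
Normalized counts of FAS, CASP1 and CASP8 (vertical axes) against ACTA2, CARD16 and CASP10 (horizontal axes), 1 point per library, all axes from 0. The shMPZL3 #1 libraries stand apart in ACTA2 (2185 to 3189, beside at most 540 elsewhere) and in CARD16, and CASP10 separated knockdown from control libraries while CASP8 did not.

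The protein-coding genes whose log2 CPM most resembled each of 3 genes over the 9 libraries were found among 13642, as a description only, since all share the same libraries and groups. For TNFSF10 they were PRUNE2, SLC2A10, HIST1H4I, MR1 and CYLD (Pearson's r 0.984 to 0.980). For CASP1 they were APP, GLB1, CTHRC1, CLIP1 and DUSP22 (0.981 to 0.970). For FAS they were PRRG4, ANKRD34B, CLDN14, PYCARD and LURAP1L (0.978 to 0.968). CYLD, a deubiquitinase of the death receptor complex, and PYCARD are the 2 of these 15 that the gene lists also hold.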

How the data were processed

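Poly-A RNA of the 9 OVCAR4 libraries was made into non-directional libraries and sequenced on an Illumina NovaSeq instrument. The authors deposited raw read counts for each gene and library, unscaled, with the 3 biological replicates of a condition kept apart; the submitters' processing notes name HISAT2 2.0.5, featureCounts 1.5.0-p3 and hg38. All 58735 genes matched GENCODE 29 in identifier, position, strand and name.

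Counts were analysed with edgeR 4.0.16 (R 4.3.3): filterByExpr, TMM factors (0.983 to 1.03), and two-sided quasi-likelihood tests with Benjamini-Hochberg adjustment over 16928 genes. The grouped comparison used a fit of 6 knockdown against 3 control libraries, and each shRNA and their difference a fit of 3 groups. Genes were called at an adjusted p under 0.05. Exact permutation tests used log2 CPM with a prior count of 2 (84 arrangements). The tests were checked on simulated counts. Groups came from the sample titles. DESeq2 1.42.0, other normalizations and filters, a replicate block, a fold threshold and leaving out each library were the alternatives.

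The 10 genes and the gene lists were chosen with earlier results of these data known. All 10 genes are described. From each list up to 3 genes with the largest grouped change among those called for both shRNAs in one direction could be named. Others in the lists (TNFSF14, FASLG, TNFRSF1A, FADD, CYCS, PYCARD, GSDMD, AIM2, GBP2) and ACTA2, CARD16, PRAL, other overlapping genes and single cell type markers were named for their role, position or level, with their values known. Total counts were 15040102 to 27835841 per library, and genes with few counts, such as CASP1 and XAF1 in controls, are less precise. The chi-square per gene between replicates of a group was 3.16 to 23.7, so no pair of libraries was alike within counting noise. Motifs were searched with Python 3.11.15. The overlap and multi-mapping settings of featureCounts are not given in the sources used here.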

Additional observations from a re-analysis of the deposited data

Results flagged for a closer look

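Of the 10 genes, TNFSF10 and CASP1 were picked out because their change differed between the shRNAs in a test of the difference itself. The log2 difference (shMPZL3 #2 minus shMPZL3 #1) was −0.99 for TNFSF10 and −1.14 for CASP1. The shRNAs also left different amounts of MPZL3 transcript, 128 ± 12.9 normalized counts under shMPZL3 #1 and 312 ± 59.5 under shMPZL3 #2 (mean ± SD over 3 libraries), and the part of this in the difference was not tested. For CASP1 the near copy CARD16 differed in the same direction, by −0.98.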

How the results depend on the processing

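Of the values of single genes under other settings, 499 kept their side of the threshold, 21 newly passed it and 25 no longer did. No value that passed in either setting changed direction. Changes of direction among values that passed in neither setting were not counted. Where no value is given in the report, the cause was not tested. When the log2 fold change also had to reach 1 in size, by construction fewer genes were called. Among the genes followed, 2 were higher grouped, 3 with shMPZL3 #1 and 1 with shMPZL3 #2, and 1 was lower between the shRNAs. Over all 16928 genes the counts in this order were 594, 1006, 572 and 318. Leaving out each library in turn gave 2 to 6 of them higher grouped, 6 to 7 with shMPZL3 #1 and 3 to 5 with shMPZL3 #2. Between the shRNAs 2 were lower. Over all 17440 to 17621 genes tested, the counts in this order were 453 to 1737, 1994 to 2992, 910 to 1732 and 798 to 1432. With the replicate number as a block, 1 of them was higher and 4 were lower between the shRNAs. TNFSF10, CASP1, FAS and CASP4 were lower and TNFRSF10A higher. Over all 16928 genes the block gave 2015 higher and 1808 lower, beside 1279 and 1280 without it. CASP1 lost its grouped call with the block (adjusted p = 0.0601, edgeR). The labels give same-numbered libraries only a shared number. Such libraries deviated together with r of −0.001 to 0.218, and not every library correlated best with its own number. Between the shRNAs r was 0.097 to 0.218 for the same number and −0.147 to 0.004 for different numbers. Whether same-numbered libraries were handled together was not tested. Without a filter the grouped value of TNFSF10 passed (adjusted p = 3.02e-05, edgeR), and with at least 10 counts required in every library XAF1 could not be tested. Depth limits TNFRSF10D, at 3 counts in all, and the control level of XAF1, at 4 to 16 counts per library.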
